A study of Mus musculus with 20 samples.

Results

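The pooled main effect of tetrathiomolybdate (TM) on gene expression in mouse calf muscle was taken as the difference between 10 libraries from muscle given TM and 10 libraries without it, with N-acetylcysteine (NAC) as a further additive term. The 20 libraries came from the gastrocnemius of male C57BL/6N mice and formed 4 groups of 5: controls, TM alone, NAC alone, and both compounds (TM+NAC). Treatment is labelled as 28 days in the 3 treated groups; neither a dose nor an age was found in the labels. TM alone and TM+NAC made up the libraries with TM, and controls and NAC alone made up those without. Of 31618 genes in the table, the 9696 with a mean of at least 1 FPKM (a read level corrected for transcript length and library depth) over the 20 libraries were tested. The TM effect is given as a log2 fold, and it was also taken separately without NAC (TM minus controls) and with NAC (TM+NAC minus NAC). These 2 separate effects share no library, and they had the same sign in 4302 genes, 44.4% of those tested.

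TM is a molybdenum-sulfur compound that binds copper tightly, in the body together with protein, and so lowers the copper that cells can take up. Copper is the catalytic metal of cytochrome c oxidase in mitochondria, of the superoxide dismutase SOD1 and of the lysyl oxidases that cross-link collagen and elastin. Dedicated chaperones carry it to each of these enzymes, and metallothioneins bind any surplus. NAC is a thiol that supplies cysteine for glutathione.

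Levels are given in CPM, counts scaled to equal library size, and at the median depth 1 CPM stood for 63.3 counts. Whether every library came from its own mouse is not stated, so the p-values reflect variation among libraries that could be technical. Defining markers of muscle fibres together made up 119000 to 174000 CPM in every library, and those of lymphocytes at most 1.96 CPM. A sum of 27 brain markers that were low in controls was 12.4 to 18.2 CPM in controls, 90.3 to 110 in 4 TM libraries, 147 to 163 in 4 NAC libraries and 118 to 176 in TM+NAC, but 15.2 in TM library 1 and 14.4 in NAC library 4. These 27 were chosen for a control mean under 2 CPM, so the low control side was set by that choice. All 40 brain markers summed to 507 to 669 CPM in controls and 561 to 735 after TM. They summed to 509 to 811 after NAC and 667 to 751 after TM+NAC, so the groups overlapped. In TM+NAC, cartilage markers summed to 26.9 to 42.1 CPM and markers of inflamed stromal cells to 23.5 to 68 CPM, against at most 17.4 and 6.57 CPM in any other library. The part of these transcripts in the results below was not tested, except by fits without the libraries concerned or with the brain sum as a term.

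No gene passed the pooled test. With edgeR's quasi-likelihood test, 0 of 9696 genes (0%) had a Benjamini-Hochberg adjusted p under 0.05, and the smallest adjusted p was 0.446. At an unadjusted p under 0.05 there were 529 genes (5.46%), 234 higher with TM (2.41%) and 295 lower (3.04%), where 485 would be expected if no gene differed. DESeq2 called 2 genes, limma on log2(FPKM + 1) called 1, limma voom with library weights called 3 and exact permutation called 0 (576 unadjusted). The 95% confidence interval of the pooled effect lay within 1.5-fold either way for 93.1% of genes and within 2-fold for 98.6%. In simulated libraries of the same depth and spread, the pooled test recovered 84% of genes changed 1.5-fold and 96% of those changed 2-fold. It recovered 42% of those with a rise of 25% or its inverse. These shares belong to the simulation, where 50 genes were changed at each size, which eases the adjusted threshold. In the measured libraries Thbs1, Lox and Nmrk2, described below, differed 3.39-fold, 2.66-fold and 1.88-fold between the means with and without TM. None of them passed, so the shares do not give the chance of finding a TM effect of a given size here.

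The TM effects without and with NAC had the same sign in a minority of genes, and that share depended on single libraries. The median absolute log2 fold was 0.0709 without NAC and 0.131 with it, beside a median standard error (SE) of 0.12 for either. Across the 9696 genes, which are not independent replicates, Pearson's r was -0.071 and Spearman's rho -0.144. Both effects were positive in 2123 genes and both negative in 2179, while 2707 genes were higher without NAC and lower with it, and 2687 showed the reverse. The share with the same sign was 37.9% without TM library 5, 38.1% without Control 4, 49.9% without TM 1, 52.9% without Control 2 and 51.4% without both TM 1 and NAC 4. Over single libraries left out, rho ran from -0.302 to 0.064, so neither its sign nor a share below an even split held throughout. Of 327 genes at an unadjusted p under 0.05 without NAC (3.37% of those tested; 1.57% higher and 1.8% lower), 178 had the same sign with NAC (54.4%). Of 1154 such genes with NAC (11.9%; 4.98% higher and 6.92% lower), 509 had the same sign without it (44.1%). The 327 became 522 without NAC library 4, and the 1154 became 496 without NAC 4 and 1881 without NAC 2. No gene had TM libraries that lay entirely beyond their comparison libraries in the same direction both without and with NAC (0%). Without NAC 43 genes (0.443%) and with NAC 255 genes (2.63%) showed such a separation. Separation in both has a chance of only 3.15e-05 per gene when TM is relabelled within NAC strata, so nothing is read from that 0. The difference between the effects had an unadjusted p under 0.05 in 7.28% of genes, 3.51% more positive with NAC and 3.77% more negative. Those 706 genes became 447 without Control 2, 1120 without Control 4 and 1270 without NAC 2.

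**Figure D1:**
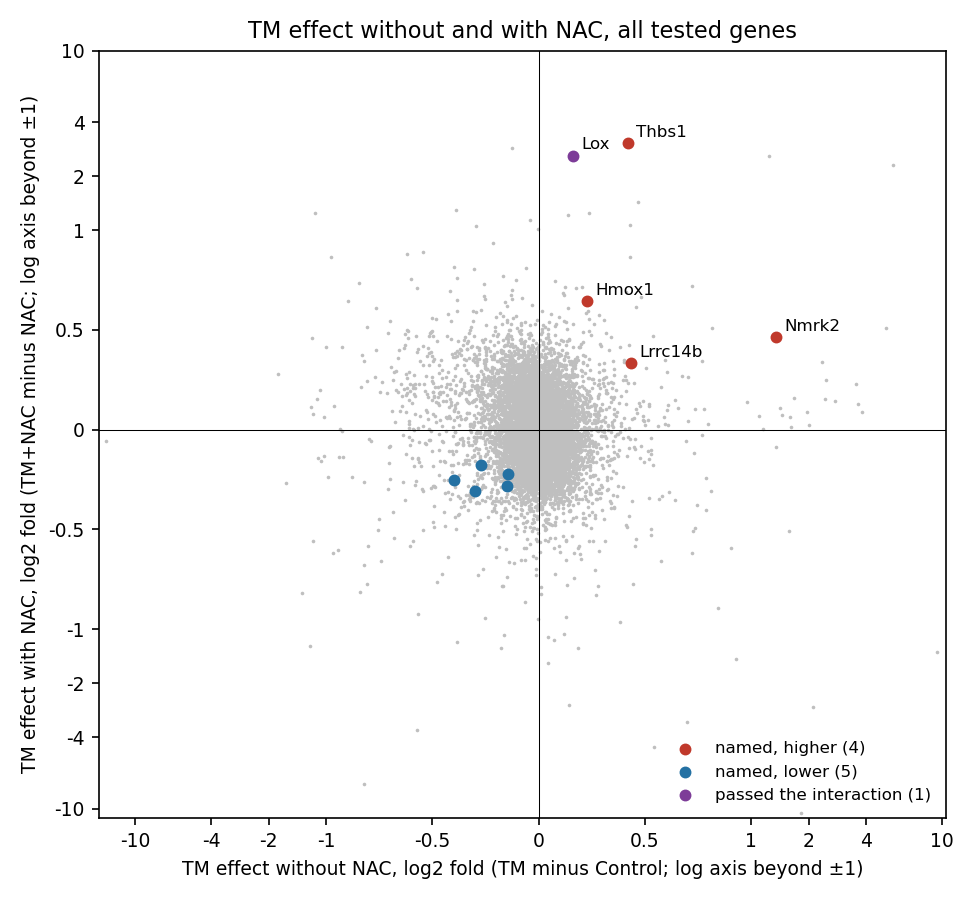
TM effect of each tested gene without NAC (x axis, log2 fold of TM over controls) and with NAC (y axis, log2 fold of TM+NAC over NAC), with both axes logarithmic beyond 1 on either side. The cloud of 9696 genes shows no rising trend. The named genes of the pooled test, in red and blue, were chosen for effects that share a sign, which fixes their quadrants.

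The genes with the smallest p of the pooled test among those with the same sign without and with NAC were named, and none of them passed. Nmrk2 (chr10:81198170-81202051, GRCm38), a kinase of muscle that feeds nicotinamide riboside into NAD synthesis, was at 71.8, 57.4, 41.8, 46.0 and 74.0 CPM in controls and at 116, 170, 178, 110 and 171 CPM after TM. With NAC alone it was at 44.1, 37.0, 97.4, 40.3 and 70.9 CPM, and with TM+NAC at 70.9, 91.3, 72.0, 91.0 and 74.5 CPM. All 5 TM libraries lay above every control, whereas the TM+NAC libraries overlapped with NAC, where library 3 was the highest of the 10. The pooled log2 fold of Nmrk2 was 0.91 ± 0.19 (SE; 95% interval 0.52 to 1.30, adjusted p = 0.446), and the separate effects were 1.35 ± 0.23 without NAC and 0.46 ± 0.23 with it. The difference between these effects had an unadjusted p of 0.0128 and an adjusted p of 0.597. Without NAC library 3 the pooled effect of Nmrk2 was 1.06 with an edgeR adjusted p of 0.0103, and it passed with DESeq2 (adjusted p = 0.0481).

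Hmox1 (chr8:75093621-75100589), the inducible haem oxygenase, was at 4.89, 4.88, 5.94, 7.60 and 5.77 CPM in controls and at 6.86, 5.94, 6.42, 7.71 and 7.10 CPM after TM. It was at 5.72, 6.28, 5.02, 5.21 and 6.23 CPM with NAC and at 8.80, 9.19, 7.92, 7.94 and 10.6 CPM with TM+NAC. Every TM+NAC library lay above every NAC library, while TM overlapped with controls, although all 5 TM libraries were above the control mean. Its pooled log2 fold was 0.44 ± 0.10 (adjusted p = 0.51, exact permutation within NAC strata p = 0.000504 before adjustment), with 0.23 ± 0.13 without NAC and 0.64 ± 0.13 with it. Hmox1 was named for its small pooled p in the same libraries, so nothing is read from its permutation p. Lrrc14b (chr13:74359578-74364005), a leucine-rich repeat protein, had effects of similar size without and with NAC, 0.43 ± 0.12 and 0.33 ± 0.12, and a pooled effect of 0.38 ± 0.09 (adjusted p = 0.51). Its mean was 34.4 ± 5.35 CPM (SD, n = 10) with TM and 26.4 ± 3.69 CPM (SD, n = 10) without. All 5 TM libraries, at 29.2 to 39.8 CPM, were above all controls, at 20.5 to 27.2 CPM, and with NAC the groups overlapped, at 29.2 to 42.8 and 24.4 to 34.7 CPM.

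A further kind of gene reached the smallest p values almost wholly through TM+NAC. Thbs1 (chr2:118111876-118127133), which encodes the matrix glycoprotein thrombospondin 1, was at 3.64, 7.79, 5.92, 3.40 and 10.3 CPM in controls, 14.6, 10.5, 7.53, 3.96 and 5.06 CPM after TM, 3.56, 4.91, 9.85, 4.46 and 6.27 CPM after NAC and 40.1, 48.3, 47.8, 40.8 and 65.9 CPM after TM+NAC. Only the TM+NAC libraries stood apart, and TM overlapped with controls. Its effects were 0.42 ± 0.34 without NAC and 3.06 ± 0.36 with it, and the additive fit gave 1.76 ± 0.41 (adjusted p = 0.51). Lox (chr18:52516067-52529867), the copper-dependent lysyl oxidase, had the same pattern, with 4.20 to 9.80 CPM in controls, 4.45 to 10.6 after TM, 4.53 to 10 after NAC and 33.7 to 67.8 after TM+NAC. Its effects were 0.16 ± 0.27 without NAC and 2.60 ± 0.28 with it, and their difference of 2.44 ± 0.38 was the 1 difference that passed the interaction test over all genes (adjusted p = 0.0287; 0.0103% of genes). That interaction count was 0 with the robust variance model, with a replicate block and in 12 of the 20 fits that left out 1 library. Lox, Thbs1 and the fibronectin gene Fn1 were the 3 genes that passed with NAC (0.0309% of genes; Thbs1 reached the filter solely through TM+NAC, with 0.941 mean FPKM over the other groups), and no gene passed without it (0%; 19 with DESeq2). For Fn1 the effects had opposite signs, -0.04 ± 0.17 and 1.14 ± 0.17, and the pooled effect was 0.55 ± 0.18 (adjusted p = 0.852). When the pooled effect was taken as the mean of the effects without and with NAC in the fit of 4 groups, 4 genes passed, among them Lox and Thbs1 (each adjusted p = 0.00283) and Nmrk2 (adjusted p = 0.0446). The TM+NAC libraries, in which Lox, Thbs1 and Fn1 were highest, were also those with the highest cartilage and inflamed stromal marker sums, and the part of such cells was not tested.

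The genes named on the lower side had smaller pooled effects, between -0.18 and -0.32. Tgfb2 (chr1:186622792-186705989), a ligand of the TGF-beta family, was at 20.1, 15.3, 15.9, 13.0 and 17.5 CPM in controls and 14.8, 13.5, 15.4, 11.8 and 11 CPM after TM. With NAC it was at 14.6, 13.9, 13.8, 14.6 and 15.4 CPM, above all TM+NAC libraries at 12.3, 10.7, 10.4, 12.6 and 12.5 CPM. TM overlapped with controls and TM+NAC did not overlap with NAC. The effects of Tgfb2 were -0.30 ± 0.11 without NAC and -0.31 ± 0.11 with it, and the pooled effect was -0.30 ± 0.08 (adjusted p = 0.641).

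Igfbp3 (chr11:7206086-7213923), a binding protein for insulin-like growth factors, was at 16.3, 20.2, 18.7, 17.6 and 21.1 CPM in controls, 15, 14.6, 14.4, 16.7 and 17.0 after TM, 16.6, 19.5, 18.7, 20.6 and 18.4 after NAC and 16.6, 15.7, 16.6, 17.9 and 16.2 after TM+NAC. The groups overlapped in both comparisons, with effects of -0.27 ± 0.08 without NAC and -0.18 ± 0.08 with it and a pooled effect of -0.22 ± 0.06 (adjusted p = 0.641). Cnot9, a subunit of the CCR4-NOT complex that shortens mRNA tails, was at a mean of 16.2 ± 0.794 CPM (SD, n = 10) with TM and 18.4 ± 1.51 without. Its pooled effect was -0.18 ± 0.05 (adjusted p = 0.763), and 5 of 5 TM and 5 of 5 TM+NAC libraries lay below the mean of their comparison group. Gatc, a subunit of the mitochondrial amidotransferase that makes glutaminyl-tRNA, was at -0.21 ± 0.06 pooled (adjusted p = 0.663), with -0.15 ± 0.08 without NAC and -0.28 ± 0.08 with it. Sult1a1, a phenol sulfotransferase, was at -0.32 ± 0.09 pooled (adjusted p = 0.8), with -0.40 ± 0.13 and -0.25 ± 0.13. For all 5 of these lower genes the exact permutation p before adjustment lay between 0.000472 and 0.00431. They were chosen by their pooled p in the same libraries, so small permutation p-values follow and nothing is read from them. Over all genes the smallest permutation p after adjustment was 0.654.

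**Figure D2:**
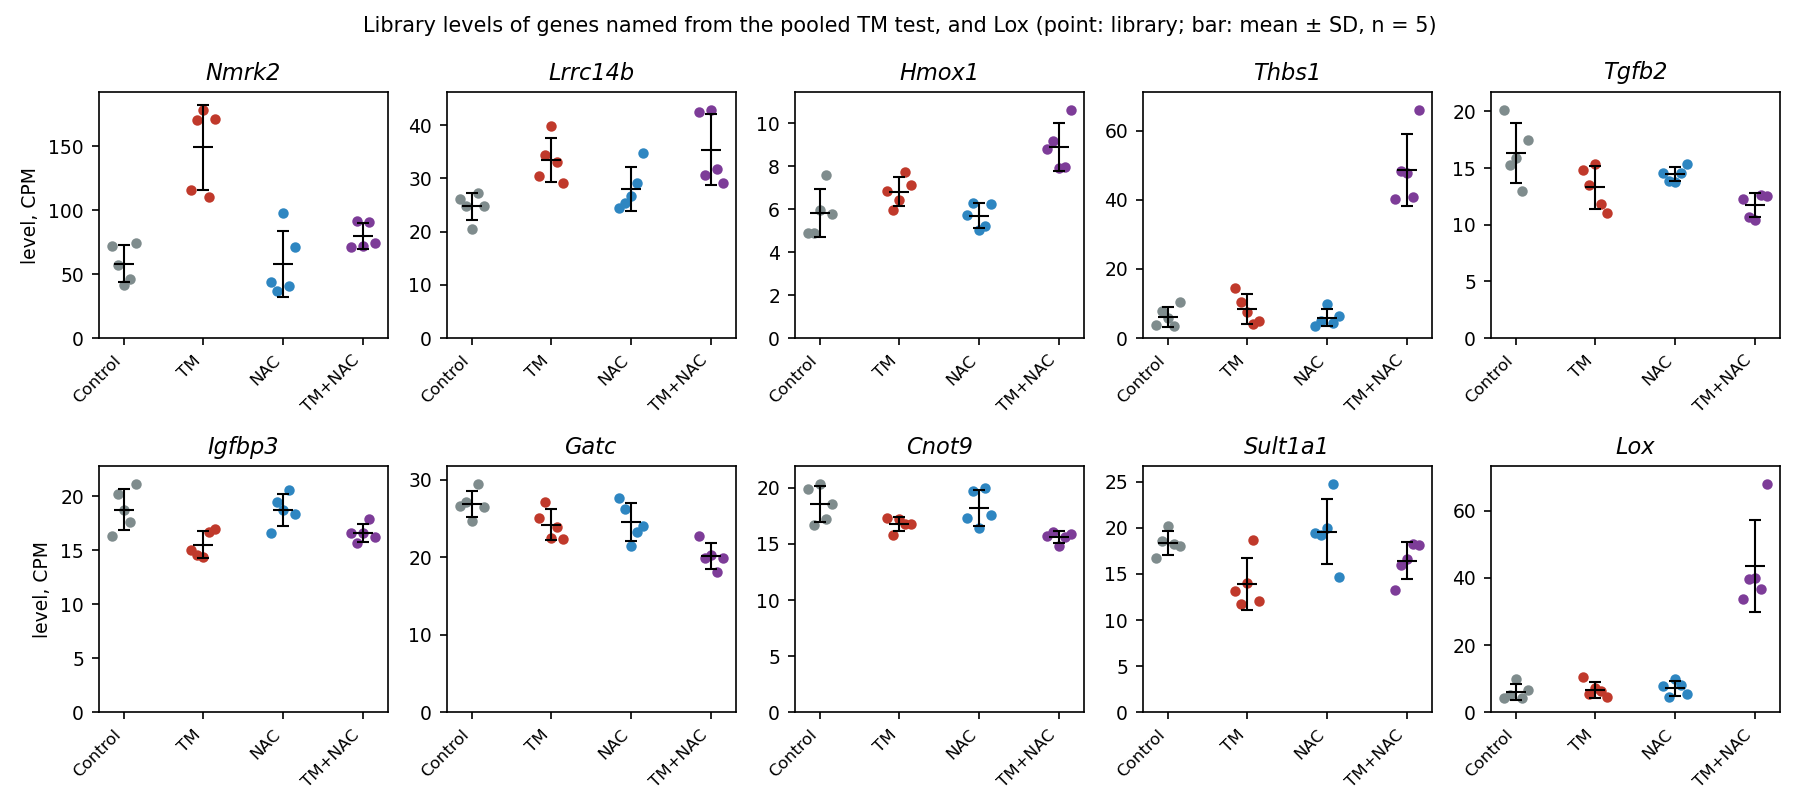
CPM of each library (points) with the group mean and SD (bars, n = 5) for genes named from the pooled test and for Lox, each panel starting at 0. Nmrk2 is highest after TM alone, Thbs1 and Lox stand apart only after TM+NAC, and the lower genes show small shifts with overlapping libraries in at least 1 of the comparisons.

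Genes that handle copper showed pooled effects near 0. The importer Slc31a1 was at a mean of 20.2 ± 2.10 CPM (SD, n = 10) with TM and 19.3 ± 1.48 without, an effect of 0.07 ± 0.06 with a 95% interval of -0.06 to 0.20. Its relative Slc31a2, which acts on intracellular copper stores, was at -0.27 ± 0.13 (unadjusted p = 0.0472, adjusted p = 0.852), with -0.22 ± 0.18 without NAC and -0.31 ± 0.18 with it. The chaperones Atox1, Ccs and Cox17, which serve the export pumps, SOD1 and cytochrome oxidase, had pooled effects of 0.12 ± 0.17, 0.07 ± 0.10 and -0.01 ± 0.14. Each of these 3 was negative without NAC and positive with it, in Cox17 at -0.28 ± 0.18 and 0.27 ± 0.18. Sco1, which inserts copper into cytochrome oxidase, was at 0.10 ± 0.11.

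Among the copper-dependent enzymes, Sod1 was at 106 ± 8.78 CPM (SD, n = 10) with TM and 106 ± 9.06 CPM without, with an interval of -0.12 to 0.12. The metallothioneins Mt1 and Mt2 were at 0.16 ± 0.18 and 0.24 ± 0.23, with libraries of 1.41 to 14.0 CPM over both genes and all groups. Of the 19 tested genes for copper uptake, chaperones and export, 5 were higher in both comparisons, 2 lower in both and 12 opposite in sign. These were 26.3%, 10.5% and 63.2%, beside 21.9%, 22.5% and 55.6% of all tested genes. Of the 19, 1 (Slc31a2, lower) had an unadjusted p under 0.05, beside 3.04% of all tested genes. The median pooled effect of these 19 was 0.06, beside -0.0046 over all tested genes. The copper pump gene Atp7a and the ferroxidase gene Cp lay under the filter at mean FPKM of 0.286 and 0.736 and were not tested.

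Of the genes of oxidative defence, Nqo1, Gclc, Txnrd1 and Gpx3 had pooled effects between -0.11 and 0.07. Nqo1, a quinone reductase, was at -0.11 ± 0.08 (interval -0.27 to 0.05). Gclc, which starts glutathione synthesis, was at -0.04 ± 0.07, and Txnrd1, the cytosolic thioredoxin reductase, at 0.07 ± 0.07. Gpx3, a secreted glutathione peroxidase, was at -0.27 ± 0.14 without NAC and 0.23 ± 0.14 with it, and at -0.02 ± 0.11 pooled. Of 27 tested NRF2 targets and glutathione genes, 6 were higher in both comparisons, 3 lower in both and 18 opposite in sign. These were 22.2%, 11.1% and 66.7%, beside 21.9%, 22.5% and 55.6% of all tested genes. Of the 27, Hmox1 was the 1 with an unadjusted p under 0.05 (5.46% of all tested genes). Of 28 antioxidant enzymes, 11 were higher in both (7 without Control 3 or Control 4) and 2 lower in both. These were 39.3% and 7.14%, beside 21.9% and 22.5% of all tested genes. The pooled effect was positive in 21 of the 28 (75%, beside 48.3% of all tested genes). Their median was 0.04 pooled, -0.003 without NAC and 0.15 with it. Glutaredoxin (Glrx), which removes glutathione from proteins, was at 0.17 ± 0.07 and the methionine sulfoxide reductase Msrb3 at -0.26 ± 0.10, both with an adjusted p of 0.852. Tfrc, the transferrin receptor that brings iron into cells, was at -0.04 ± 0.10.

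**Figure D3:**
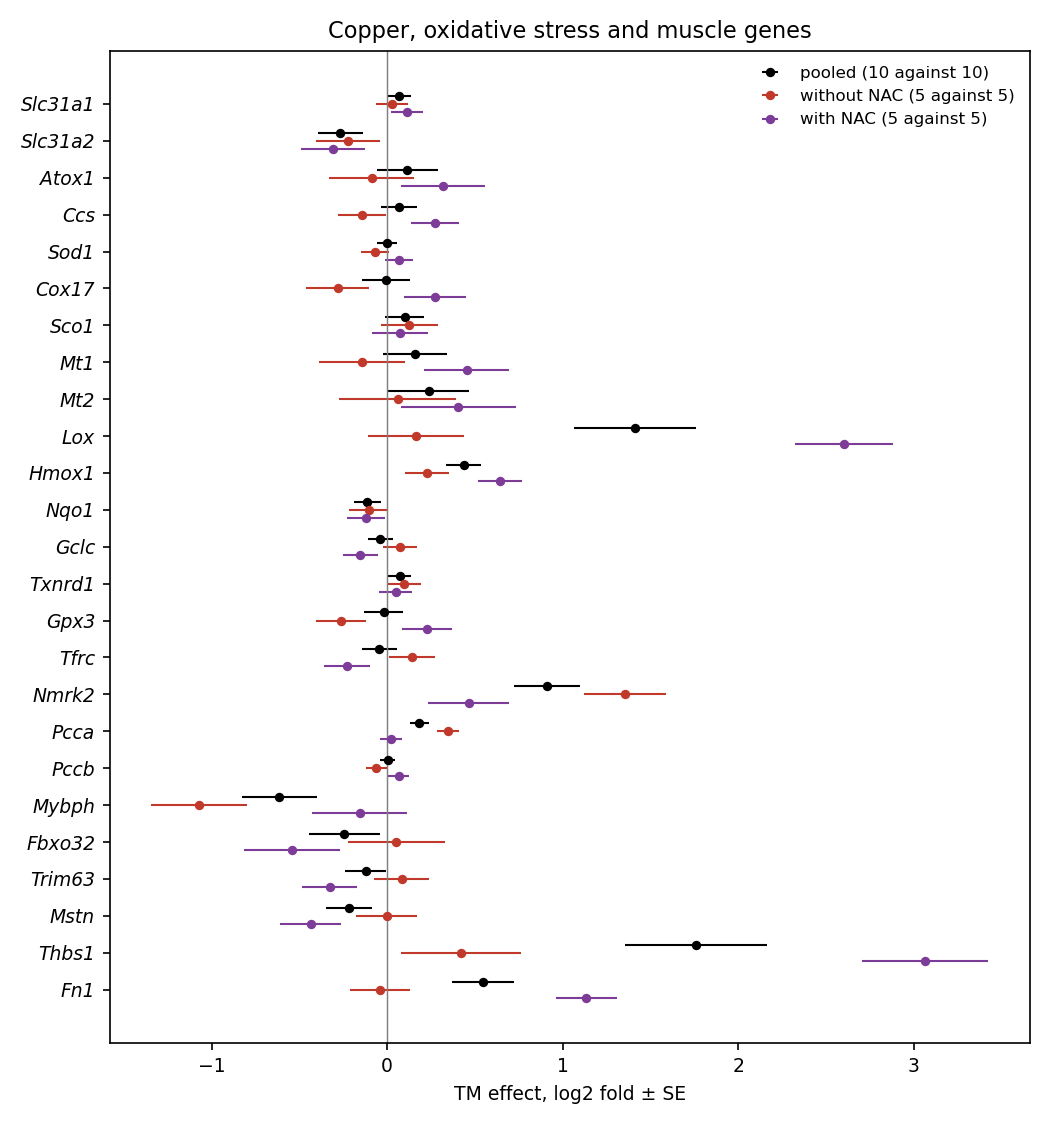
TM effect (log2 fold ± SE) of a fixed panel of copper, oxidative stress, NAD, propionyl-CoA, atrophy and matrix genes, pooled (black, 10 against 10 libraries), without NAC (red) and with NAC (purple, 5 against 5 each). Copper and oxidative stress genes other than Lox and Hmox1 lie between -0.27 and 0.24 pooled, and Lox, Thbs1 and Fn1 show a gap between the separate effects.

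Pcca, like Nmrk2, had its larger TM effect without NAC. Pcca (chr14:122534324-122891100), the biotin-bearing subunit of propionyl-CoA carboxylase, was at 38.8, 35.1, 38.7, 35.1 and 38.2 CPM in controls and at 47.2, 45.8, 48.7, 49.3 and 45.5 CPM after TM, with no overlap. After NAC it was at 42.5, 42.1, 43.4, 42.4 and 36.9 CPM and after TM+NAC at 43.5, 44.2, 41.2, 42.8 and 38.5 CPM, fully overlapping. The effects were 0.35 ± 0.06 and 0.02 ± 0.06, with an unadjusted p of 0.00125 for their difference (adjusted p = 0.597), and the pooled effect was 0.18 ± 0.05 (adjusted p = 0.818). Its partner subunit Pccb was at 0.00 ± 0.04 pooled, with an interval of -0.09 to 0.09. Of 15 tested genes of NAD synthesis and use, 5 were higher in both comparisons and 2 lower in both (33.3% and 13.3%). Over all tested genes the shares were 21.9% and 22.5%. Beside Nmrk2, the mitochondrial deacylase Sirt3 was at 0.21 ± 0.09 and the ADP-ribosyltransferase Parp3 at 0.12 ± 0.04 (both adjusted p = 0.852).

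Most fast-fibre contractile genes were lower in both comparisons. Of 16 fast-fibre genes, 12 were lower in both comparisons and 2 higher in both (75% and 12.5%, beside 22.5% and 21.9% of all tested genes), with a median pooled effect of -0.08. The 12 was 8 to 12 over single libraries left out, and the pooled median was -0.11 to -0.05 over single libraries left out. Tnnt3, fast troponin T, was at -0.21 ± 0.07, with means of 19100 CPM with TM and 22200 CPM without, and the fast myosin Myh4 was at -0.19 ± 0.09, with 0.00 ± 0.12 without NAC and -0.37 ± 0.12 with it. Without NAC library 4, the highest for Myh4 at 73600 CPM, its pooled effect was -0.12. Mybph, a myosin-binding protein, was at 135 to 263 CPM in controls and 51.6 to 152 after TM, and at 73.3 to 166 with NAC and 73.5 to 129 with TM+NAC. Its effects were -1.07 ± 0.27 and -0.16 ± 0.27, and both pairs of groups overlapped. Myh1, the myosin of fibre type IIx, went the other way at 0.34 ± 0.13. Each of these 4 had an adjusted p of 0.852. Of 14 tested slow-fibre genes 8 were lower in both and 2 higher in both, and Mb, the oxygen-binding myoglobin, was at 0.33 ± 0.12. The cardiac-type actin Actc1 and the perinatal myosin Myh8 were at -0.50 ± 0.18 and -0.26 ± 0.09 (adjusted p = 0.852 each).

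Pooled effects of the ubiquitin ligases of atrophy were -0.24 ± 0.20 for Fbxo32 and -0.12 ± 0.12 for Trim63, with positive values without NAC and negative values with it. Without NAC library 4, the highest of all 20 for both at 594 and 346 CPM, they were -0.06 and -0.01. Mstn, which restrains muscle growth, was at 0.00 ± 0.17 without NAC and -0.44 ± 0.17 with it. NAC library 4 was the highest of its group for Mstn, at 142 CPM beside 80.7 to 91.2 CPM, and that library had 20.3% of its counts on the mitochondrial chromosome. Of 24 atrophy and FoxO genes, 5 were higher in both comparisons, 4 lower in both and 15 opposite, with 0 at an unadjusted p under 0.05. The sign shares were 20.8%, 16.7% and 62.5%, near the 21.9%, 22.5% and 55.6% of all tested genes.

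Of 20 tricarboxylic acid (TCA) cycle genes 12 were higher in both comparisons and 0 lower in both (beside 21.9% and 22.5% of all tested genes), with a median pooled effect of 0.07, which was 0.05 to 0.08 over single libraries left out. Of 29 genes of fatty acid uptake and oxidation, 13 were higher in both and 5 lower in both, and the 13 became 8 without Control 3 and 20 without NAC 4. Hadh, Acaa2 and Acadvl, enzymes of beta-oxidation, were at 0.15 ± 0.05, 0.25 ± 0.10 and 0.17 ± 0.06, and Got2, the mitochondrial aspartate transaminase, at 0.14 ± 0.05. Dlst, a subunit of the oxoglutarate dehydrogenase complex of the TCA cycle, was at 0.10 ± 0.05 (interval 0.00 to 0.19), with means of 262 ± 17.7 CPM (SD, n = 10) with TM and 245 ± 15.1 CPM without. All 5 of these genes had an adjusted p of 0.852. At an unadjusted p under 0.05 there were 2 TCA genes and 3 fatty acid genes, all higher, beside 2.41% of all tested genes.

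Most genes of complex I, of the mitochondrial genome and of the ribosome took opposite signs without and with NAC, as did 55.6% of all tested genes, and the counts depended on single libraries. Complex I, the entry point of electrons from NADH, had a median of -0.07 without NAC and 0.27 with it, and 32 of 36 members were opposite in sign. For nuclear genes of complex IV, the copper enzyme cytochrome oxidase, the medians were -0.05 and 0.19, and 24 of 33 (72.7%) were opposite. For complexes II and III and the ATP synthase the medians were -0.03 and 0.21, with 18 of 29 (62.1%) opposite, 10 higher in both, and 1 at an unadjusted p under 0.05 (Atp5b, named after its value was seen). The 13 mitochondrially encoded proteins showed the reverse, with medians of 0.05 and -0.23, and 11 of 13 opposite. Of 50 cytosolic ribosomal protein genes, 44 were opposite, with medians of -0.11 and 0.15 and a pooled median of 0.02. In the other 4 lists no gene had an unadjusted p under 0.05 in the pooled edgeR test, beside 5.46% of all tested genes. Without NAC library 4, whose mitochondrial share was 20.3%, the medians with NAC were 0.15 for complex I, 0.12 for complex IV, -0.06 for the mitochondrial genome and 0.07 for ribosomal proteins. Of the 36 complex I genes, 20 were opposite in sign without TM library 1 and 18 without Control 2, and of the mitochondrial genes 3 were opposite without TM 2.

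**Figure D4:**
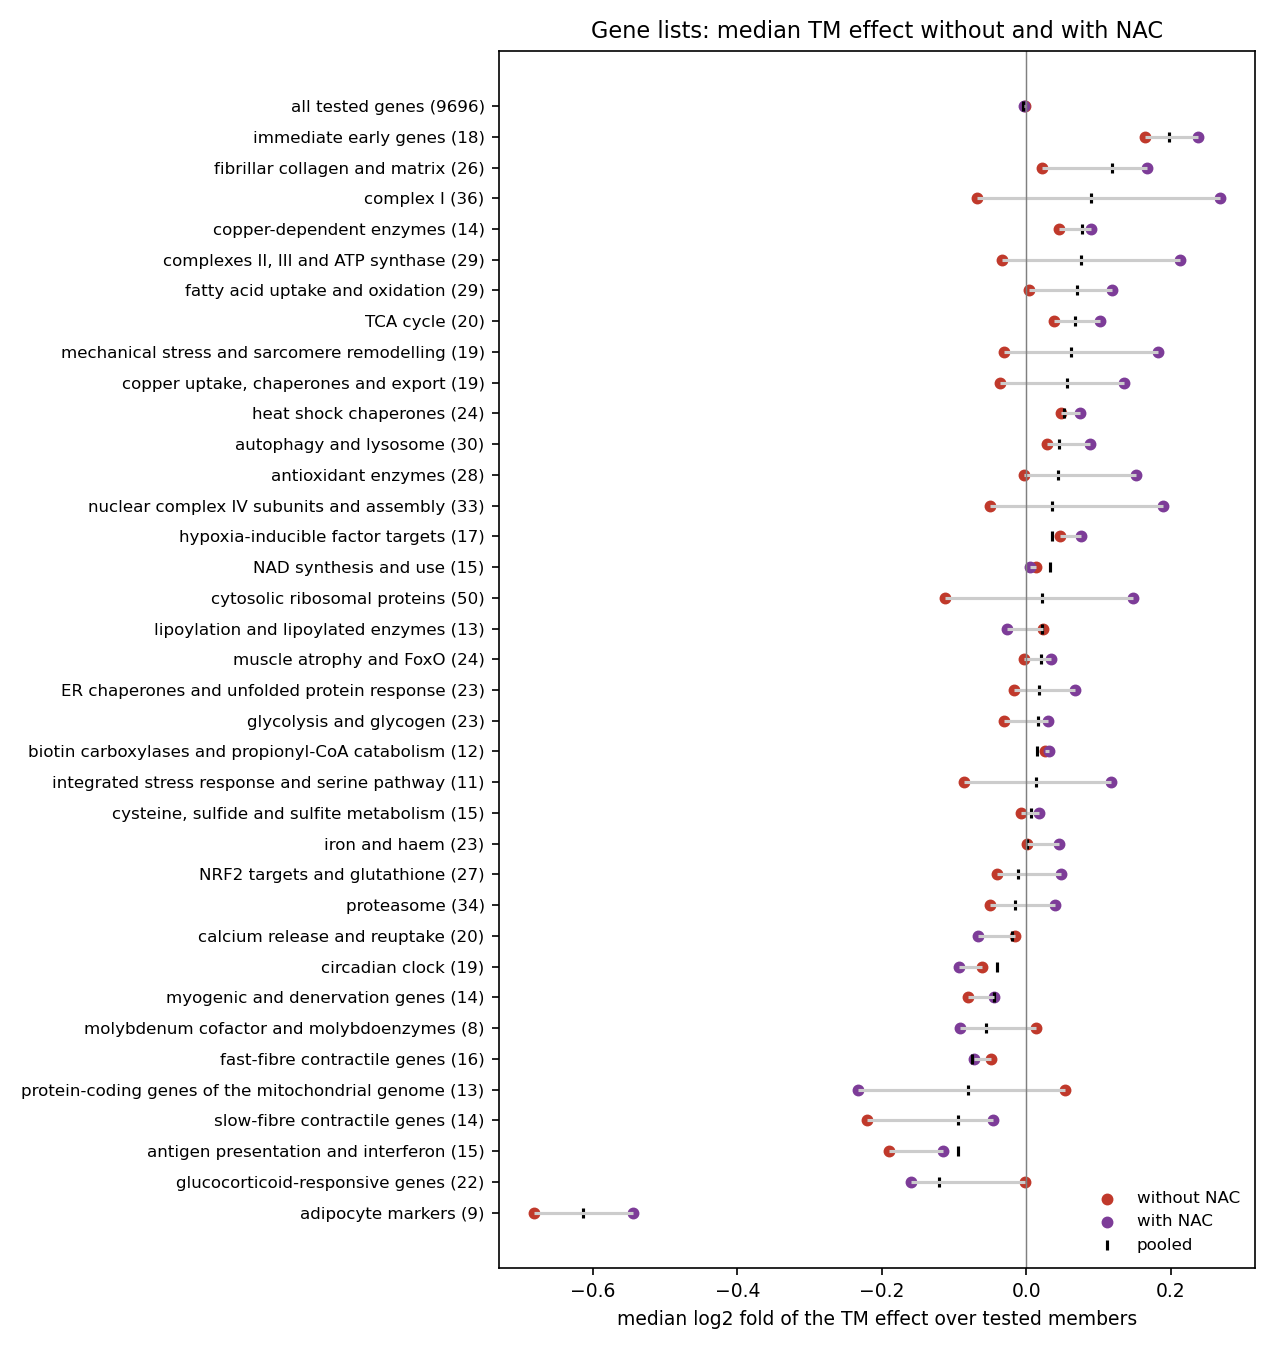
Median log2 fold of the TM effect over the tested members of each gene list (number in brackets), without NAC (red), with NAC (purple) and pooled (black tick), with all tested genes in the top row. Adipocyte markers lie lowest at -0.61 pooled, and respiratory chain and ribosomal lists show medians on either side of 0.

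Adipocyte markers had the lowest median of the lists, -0.61 pooled, with -0.68 without NAC and -0.54 with it. Of the 13 markers listed, 9 passed the filter, and of these 7 were lower in both comparisons and 1 higher in both. Of all tested genes, 22.5% were lower in both and 21.9% higher in both. The pooled median was -0.79 without TM+NAC library 3 and -0.46 without NAC library 3, its lowest and highest values over single libraries left out. The 4 with an unadjusted p under 0.05, all lower beside 3.04% of all tested genes, were the fatty acid desaturase Scd1 at -0.79 ± 0.28, the lipid droplet protein Cidec at -0.69 ± 0.31, and the secreted proteins adiponectin (Adipoq) at -0.75 ± 0.35 and resistin (Retn) at -0.77 ± 0.37, each with an adjusted p of 0.852. Scd1 was at 66.0, 84.3, 101, 58.7 and 116 CPM in controls, 57.8, 30.3, 33.6, 75.8 and 20.1 after TM, 87.5, 87.6, 159, 121 and 72.7 after NAC and 56.8, 26.8, 169, 42.4 and 49.5 after TM+NAC. The groups overlapped in both comparisons, and TM+NAC library 3 was the highest of all 20. That library was also the highest of its group for Adipoq, at 10.2 CPM beside 1.24 to 6.23, and for Retn, at 5.41 beside 0.494 to 2.70. The summed level of all 13 markers was 828 to 1260 CPM in controls, 906 to 1110 after TM, 885 to 1230 after NAC and 776 to 1470 after TM+NAC, so the groups overlapped. The mean sum was 1120 CPM in controls and 1040 after TM, and 1040 after NAC and 1020 after TM+NAC. For the single markers that were lower, fewer fat cells and less RNA per fat cell cannot be told apart in bulk muscle. Cdo1, cysteine dioxygenase, which is abundant in fat, was at -0.86 ± 0.30 (adjusted p = 0.852), also with its highest TM+NAC value in library 3, at 9.99 CPM.

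Matrix genes were led by those that stood apart in TM+NAC. Of 26 tested genes of fibrillar collagen and matrix, 14 were higher in both comparisons and 6 lower in both, with a median of 0.12. These were 53.8% and 23.1%, beside 21.9% and 22.5% of all tested genes. Of the 26, 4 had an unadjusted p under 0.05, all higher (2.41% of all tested genes). Of these 4, Thbs1 and Timp1 reached the filter solely through TM+NAC, at 0.941 and 0.39 mean FPKM over the other groups, so nothing is read from that count. Without TM library 1 the 14 became 3 and the median 0.05, and without Control 4 they were 6 and 0.06. The fourth of these, the protease inhibitor Timp1, was at 0.145 to 0.649 CPM in controls, 0 to 0.708 after TM, 0.294 to 0.776 after NAC and 2.88 to 6.86 after TM+NAC. Its effect was -0.13 ± 0.67 without NAC, 2.88 ± 0.64 with it and 1.52 ± 0.59 pooled (adjusted p = 0.852), and it was one of the inflamed stromal markers whose sum was high in TM+NAC.

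Targets of the hypoxia-inducible factors were more often higher than lower, 10 of 17 in both comparisons and 2 lower in both (beside 21.9% and 22.5% of all tested genes). Their median pooled effect was small, at 0.04, with 0.05 without NAC and 0.08 with it. At an unadjusted p under 0.05 there were 3, all higher, beside 2.41% of all tested genes. P4ha1, a subunit of the prolyl hydroxylase of collagen, was at 38.1 ± 2.69 CPM (SD, n = 10) with TM and 33.4 ± 2.22 without, an effect of 0.19 ± 0.05 (adjusted p = 0.661), with 0.22 ± 0.07 without NAC and 0.16 ± 0.07 with it. Its relative P4ha2 was at 0.17 ± 0.08, and Egln3, a prolyl hydroxylase that marks the hypoxia-inducible factors for degradation, at 0.41 ± 0.13 (adjusted p = 0.852 each). TM library 4, at 22.3 CPM, was the lowest of all 20 for Egln3. Dnaja4, a co-chaperone of the HSP40 family, was at 90.6 ± 9.73 CPM with TM and 76.3 ± 5.93 without (SD, n = 10), an effect of 0.25 ± 0.06 (adjusted p = 0.641).

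Immediate early genes had a median of 0.20, with 10 of 18 higher in both comparisons and 1 lower in both. None had an unadjusted p under 0.05 with edgeR, beside 5.46% of all tested genes. For this list and those that follow, 21.9% of all tested genes were higher in both and 22.5% lower in both. Of 15 tested genes of antigen presentation and interferon, 8 were lower in both (5 without NAC library 2) and 1 higher in both, with a median of -0.09. The class II genes H2-Eb1 and H2-Aa, which present peptides to T cells, were at -0.29 ± 0.13 and -0.25 ± 0.12 (adjusted p = 0.852 each). Of 34 proteasome genes 12 were lower in both and 3 higher in both, and the 12 became 6 without Control 4 or NAC 4. Of 30 autophagy and lysosome genes 14 were higher in both and 1 lower in both. Macrophage and neutrophil markers summed to 54.3 to 95.4 CPM after TM and 51.4 to 98.3 CPM in controls.

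**Figure D5:**
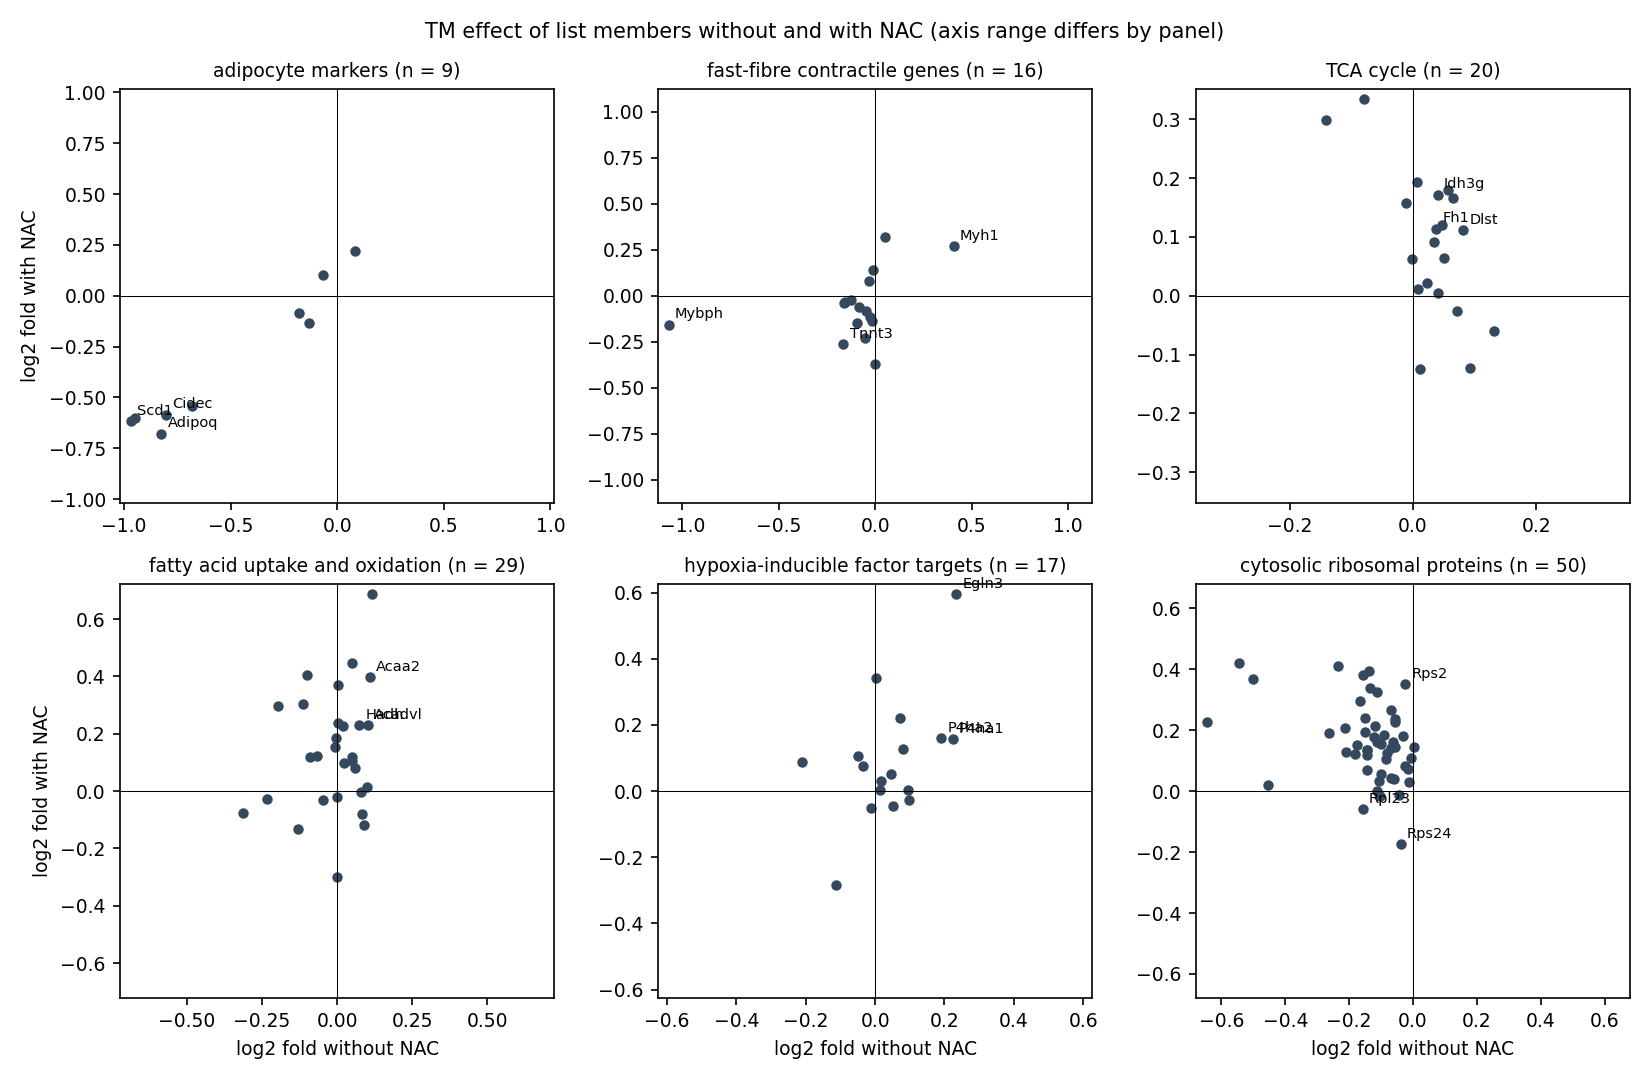
TM effect of the tested members of 6 gene lists without NAC (x axis, log2 fold) and with NAC (y axis, log2 fold), with axis ranges that differ by panel. Most adipocyte and fast-fibre members lie lower left, most TCA cycle members upper right, and 44 of 50 ribosomal protein genes lie in the quadrants of opposite sign.

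The neuronal markers Snap25, Snhg11 and Kif5a were also among the 27 low-control brain markers, so their likeness to that sum is built in. The summed level of all 20 neuronal markers was 393 to 489 CPM in controls, 446 to 529 after TM, 376 to 599 after NAC and 449 to 505 after TM+NAC, so the groups overlapped, and the mean was 485 CPM after TM against 444 in controls and 478 after TM+NAC against 522 after NAC. Only 7 of the 20 passed the filter, Snap25 and Snhg11 solely through the group where they were highest (0.828 and 0.946 mean FPKM over the other groups), so no direction is read from those that passed. Snap25, which drives synaptic vesicle fusion, was at 0.666 to 2.24 CPM in controls, at 0.854 in TM library 1 and 8.64 to 9.76 in the other TM libraries, at 0.218 in NAC library 4 and 12.7 to 14.7 in the other NAC libraries, and at 11.3 to 16.7 in TM+NAC. Its effects were 2.46 ± 0.66 without NAC and 0.25 ± 0.60 with it, 1.28 ± 0.51 pooled (adjusted p = 0.852), and -0.18 pooled with the sum of the 27 low-control brain markers as a term. Snap25 is itself part of that sum, so nothing is read from this last value. Enpp2, the secreted enzyme autotaxin that the choroid plexus and fat also make, was at 11.7 to 14.5 CPM in controls, 13.1 to 16.1 after TM, 15.9 to 20.6 after NAC and 18.7 to 23.6 after TM+NAC, with a pooled effect of 0.25 ± 0.06 (adjusted p = 0.641). With the low-control brain sum as a term, 331 genes had an unadjusted p under 0.05 in the pooled edgeR test and 0 passed. Without TM library 1 and NAC library 4, 605 had an unadjusted p under 0.05 and 1 passed.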

How the data were processed

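Library totals were 54.7 to 90.7 (median 63.3) in units of 1e+06 counts. Poly(A)-selected RNA of 20 libraries was sequenced with a strand-marking (dUTP) kit, per the labels' protocols. Per the submitters' processing notes, cutadapt 1.9, FastQC, HISAT2 2.2.1, StringTie and the build GRCm38 were used. The deposited table gives, per the file headers, a count and an FPKM value for each library and gene. The authors' count columns hold raw whole numbers, and the FPKM columns deposited beside them are corrected for length and depth. No source used here says how counts were taken or whether strand was used.

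Groups were taken from the treatment labels. Counts of the 9696 genes reaching 1 FPKM on average were scaled by TMM and fitted with edgeR 4.0.16 (R 4.3.3) with the terms NAC and TM. The separate effects and the interaction came from a fit of the 4 groups. Each SE was obtained as log2 fold over the root of the F statistic, and intervals are at 95%. Tests are two-sided, adjusted by Benjamini-Hochberg over 9696 genes, with a threshold of 0.05. The additive fit counts a difference between the effects without and with NAC as residual spread. The exact permutation test reassigned TM within NAC strata (63504 relabellings, smallest possible p 3.15e-05) on log2 CPM with a prior count of 2. Over 9696 genes, 1 gene alone at that p cannot pass the adjusted threshold, and within a single stratum the smallest possible p is far larger.

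Named were the 5 genes in each direction with the smallest pooled p among those with the same sign without and with NAC, genes passing the interaction, a fixed panel, and up to 4 members of each list, picked after their values were seen. Pseudogenes, predicted or clone-named loci, and IDs with no symbol or a shared one were passed over. Separate results of some of these genes are not reported here, and they stay in every fit, count and list. Members and lists were chosen with earlier results of these data known. The pooled test was tested on simulated data (50 changed genes at each size, 10 false calls in all). Same-numbered libraries of different groups had deviations correlated at -0.269 to 0.381, so the numbers did not pair libraries. Within groups no libraries were alike to sampling noise (lowest chi-square per degree of freedom 22.9). Alternatives used DESeq2 1.42.0 and limma 3.58.1.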

Additional observations from a re-analysis of the deposited data

Results flagged for a closer look

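The TM effect on Lox differed with NAC and without it by 2.44 on the log2 scale, past the test of the interaction (adjusted p = 0.0287). No gene passed that test with the robust variance model, with a replicate block, or in 12 of the 20 fits that left out 1 library.

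In 24 of 268 combinations of a named gene and a group, 1 library lay far from the other 4 (Dixon's ratio above 0.71), and chance flags about 1 group in 20. NAC library 4 was high for Sco1 (9.15 CPM), Mstn (142) and Tnnt3 (28300), and low for Fn1 (38.8), Sirt3 (11.1), Snhg11 (1.20) and Snap25 (0.218). TM library 1 was low for the neuronal transcripts Kif5a (0.901 CPM), Snhg11 (0.574) and Snap25 (0.854). TM+NAC library 5 was high for Lox (67.8 CPM), Mt2 (8.43), Pccb (84.8) and Timp1 (6.86), and TM+NAC library 3 for Scd1 (169). NAC library 5 was high for Gpx3 (134 CPM) and low for Pcca (36.9), and NAC library 1 was low for Glrx (14.0). Control library 4 was high for Mt1 (11.1 CPM) and Mstn (121), Control 2 for Ccs (10.1), Control 5 for the deubiquitinase Otud1 (48.2) and Control 1 for the sarcomere protein Xirp1 (164). TM library 5 was low for Enpp2 (13.1 CPM).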

How the results depend on the processing

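The pooled count of 0 became 2 with no filter (Saa3 and Cxcl5, named after their values were seen, both under 1 FPKM on average). Both belong to the inflamed stromal markers, whose sum was high only in TM+NAC. The pooled count was 2 with DESeq2, 3 with limma voom and library weights and 1 with limma on log2(FPKM + 1). As the mean effect of the 4-group fit it was 4, and without TM 1 and NAC 4 it was 1. With the sum of all brain markers as a term it was 1, and 0 to 1 when each library was left out. It was 0 under the other scalings, a mean FPKM of at least 5, limma on log2(FPKM + 0.1), the robust variance model, no NAC term, the low-control brain term, a fold of at least 1.5 as well, and exact permutation. Without NAC the count of 0 became 197 with no filter, 2 at a mean FPKM of at least 5, 19 with DESeq2, 1 with limma at either pseudocount, 2 with voom, 30 without TM 1 and NAC 4, 1 with the low-control brain term, and 0 to 22 over single libraries left out, with 12 without TM 1, 22 without NAC 4 and 1 without NAC 3. With NAC the count of 3 became 13 with no filter, 0 at a mean FPKM of at least 5 (which leaves out Lox, Thbs1 and Fn1), 8 with DESeq2, 6 and 5 with limma at pseudocounts 1 and 0.1 and 5 with voom, and ranged from 3 to 4 over single libraries left out. By exact permutation it was 0. Relabelling 5 against 5 libraries cannot give p-values small enough for a few genes to pass, so nothing is read from that 0. The interaction count of 1 became 7 with no filter, 0 at a mean FPKM of at least 5, 3 with limma on log2(FPKM + 1), 6 with voom, 9 with DESeq2, 0 with the robust model, 23 without TM 1 and NAC 4, 1370 with the low-control brain term (chosen after seeing the data), and 0 to 7 over single libraries left out, with 0 without Control 2, 3 or 5, TM 2 to 5, NAC 1, 2 or 5 or TM+NAC 2 or 5. Within groups the low-control brain sum differed mainly in TM 1 (15.2 CPM) and NAC 4 (14.4 CPM). The 4-group fit with that term rests largely on these libraries, so nothing is read from the 1370. The causes of these changes in count were not tested.

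Library numbers did not pair the libraries, and 5 of 20 were most like 1 of their own number. With the number as a block the counts were 0 pooled (554 unadjusted), 0 without NAC, 3 with NAC and 0 for the interaction.

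Some pooled effects near 0 turned sign. Sod1 (-0.001) was 0.023 by library totals, 0.057 and 0.060 with limma at pseudocounts 1 and 0.1, 0.003 without TM 1 and NAC 4, and -0.025 to 0.028 over single libraries left out. Cox17 (-0.006) was 0.010 by library totals, 0.063 and 0.082 with limma, 0.024 under the replicate block, 0.023 on log2 CPM and -0.085 to 0.067 over single libraries. Gpx3 (-0.019) was 0.010 by library totals, 0.032 with limma at either pseudocount, 0.013 without TM 1 and NAC 4, 0.019 and 0.009 with the brain terms and -0.086 to 0.040 over single libraries. Pccb (0.002) was -0.002 with no filter, -0.008 at a mean FPKM of at least 5, -0.006 and -0.021 with the brain terms and -0.010 to 0.020 over single libraries. With limma at pseudocounts 1 and 0.1, Gclc was 0.021 and 0.028 and Tfrc 0.024 and 0.026. With the low-control brain term, Atox1 was -0.059, Fbxo32 0.028, Snhg11 -0.010 and Snap25 -0.184, and Trim63 was 0.009 without TM 1 and NAC 4. Snhg11 and Snap25 are themselves part of that brain sum. The gene lists without single libraries, given with the results, were also examined after seeing the data. Depth limits low genes most: at 1 CPM the median library held 63.3 counts.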
